A study of Homo sapiens with 39 samples.

Results

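The HNF4A isoform 5 line derives from HCT116, a human colorectal cancer line, and makes isoform 5 of the nuclear receptor HNF4A (hepatocyte nuclear factor 4 alpha), joined to GFP at its C-terminus, once doxycycline is added. Its 3 RNA-seq libraries, titled HNF4alpha5-GFP, were compared with the 3 libraries of the parental cells, titled Empty Control, so 6 of the 39 libraries of the series make up the comparison. The other 33 belong to the lines of the remaining isoforms, made the same way with the Flp-In T-REx system, which places 1 copy of a construct at a fixed genomic site. The parental cells are the same HCT116 host without an HNF4A construct, and the labels list their isoform as none. Cells of both groups received 2.5 µg/ml doxycycline for 48 h. Before induction the parental cells were kept in blasticidin S (5 µg/ml) and zeocin (100 µg/ml), and the line in blasticidin S (5 µg/ml) and hygromycin B (100 µg/ml). These antibiotics were withdrawn at induction. The isoform is represented by 1 line, and there is no group with GFP alone, so isoform, GFP, earlier antibiotics and line derivation cannot be told apart. Nothing in the labels says whether the 3 libraries of a group came from separate cultures. Unless stated otherwise, p-values measure the spread between libraries within groups, estimated over all 13 groups of the series, and this spread may be technical.

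HNF4A binds DNA as a homodimer and switches on genes of liver, gut, kidney and pancreatic beta cells. Its isoforms differ at both ends: a choice of promoter and first exons sets the N-terminus, which holds an activation domain in some forms, and splicing sets the C-terminal F domain. By the standard nomenclature, not by the labels, isoform 5 comes from the P1 promoter, carries the extra exon 1B and has the short insertion in the F domain. Isoform 2 shares that insertion but lacks exon 1B, isoform 4 has exon 1B without the insertion, and isoform 6 has exon 1B with a shortened C-terminus. These 3 lines were therefore the closest relatives in structure to compare directly.

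HNF4A mRNA was measured in every library first, because it checks the label. Values are in TPM, a transcript abundance that corrects for length and scales each library to a fixed total. The summed HNF4A level was 31.9, 30.8 and 31.7 TPM in parental cells, and the isoform 5 libraries held 867.7, 882.0 and 807.0 TPM. All 3 libraries of the line lay far above all 3 parental ones. The means were 31.5 TPM ± 0.589 (SD, n = 3) and 852.2 TPM ± 39.8 (SD, n = 3), a 27.1-fold ratio and a difference of 4.71 ± 0.137 (SE) on the log2(TPM + 1) scale (limma, adjusted p 4.06e-21).

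The deposited tables split HNF4A into 12 rows, 1 per isoform. In the isoform 5 libraries the highest row held 866.6, 880.4 and 805.8 TPM. That row is named HNF4A5 in the table of this line but HNF4A4 by its place in the parental table, since 29 row names differ between the tables, of which 27 had become dates and the other 2 are this exchange. The isoform 4 table carries the same exchange: its highest row, with 867.4, 869.5 and 820.4 TPM, is named HNF4A4 there and HNF4A5 by its place in the parental table. The names in the 2 lines' own tables go with the labels, while by row order the 2 lines would hold each other's isoform. Which naming is right was not settled by the files, so the lines are called isoforms 4 and 5 as labelled. In the line's own table the row of isoform 6 held 0.795, 1.2 and 0.905 TPM and the row of isoform 4 held 0.225, 0.244 and 0.132 TPM, so other isoforms took little of the total. The rows of isoforms 10 to 12 summed to between 30.8 and 31.8 TPM in the parental libraries and were listed at 0 in all 3 isoform 5 libraries. In the 8 other lines of isoforms 1 to 9 the same sum was between 0 and 0.89 TPM, so the listing at 0 was not particular to isoform 5. Whether the cells' own HNF4A transcripts were lower or their reads were assigned to the row of the construct was not tested.

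The 6 libraries had between 28994 and 30550 genes above 0 TPM. The lowest correlation between 2 libraries of a group, across genes on the log2(TPM + 1) scale, was 0.992 in each group, and the highest between groups was 0.99. Markers of colorectal epithelium (EPCAM, CDH1, KRT8, KRT18, KRT19 and CLDN7) summed to between 3185 and 3311 TPM in parental and between 2828 and 2883 TPM in isoform 5 libraries. The sums of 6 hepatocyte markers stayed between 0.578 and 1.30 TPM over the 6 libraries. The 5 fibroblast markers summed to between 13.5 and 15.5 TPM over the 6 libraries, mostly COL1A1, and the 4 endothelial markers to between 1.79 and 3.17 TPM. The 5 leukocyte markers summed to between 3.98 and 5.54 TPM in parental and between 6.39 and 6.90 TPM in isoform 5 libraries, mostly CD68, while PTPRC and CD3E were at 0.296 TPM or less in each library. The part of these shifts in the results was not tested, and in bulk RNA fewer cells of a type and less RNA per cell cannot be told apart.

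In total 43 of 15002 genes tested were called in isoform 5 against parental, which is 0.287% of the genes: 22 higher (0.147%) and 21 lower (0.14%). Calls needed an adjusted p below 0.05 (limma, Benjamini-Hochberg) together with a log2 fold change of 1 or more in size. The scale is log2(TPM + 1), which understates the change of genes with few TPM. For all 43 the 3 libraries of one group lay apart from the 3 of the other, as they did for 38% of all genes. Without a minimum fold change 2218 genes passed (14.8%), 1435 higher (9.57%) and 783 lower (5.22%), so most differences were under 2-fold. The median log2 fold change of all genes was 0.012. Of the 43, 31 were protein-coding and 12 were short RNAs, pseudogenes, long non-coding RNAs or rows without a type. In the plot of TPM by library the 31 protein-coding genes are shown with every value.

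**Figure D1:**
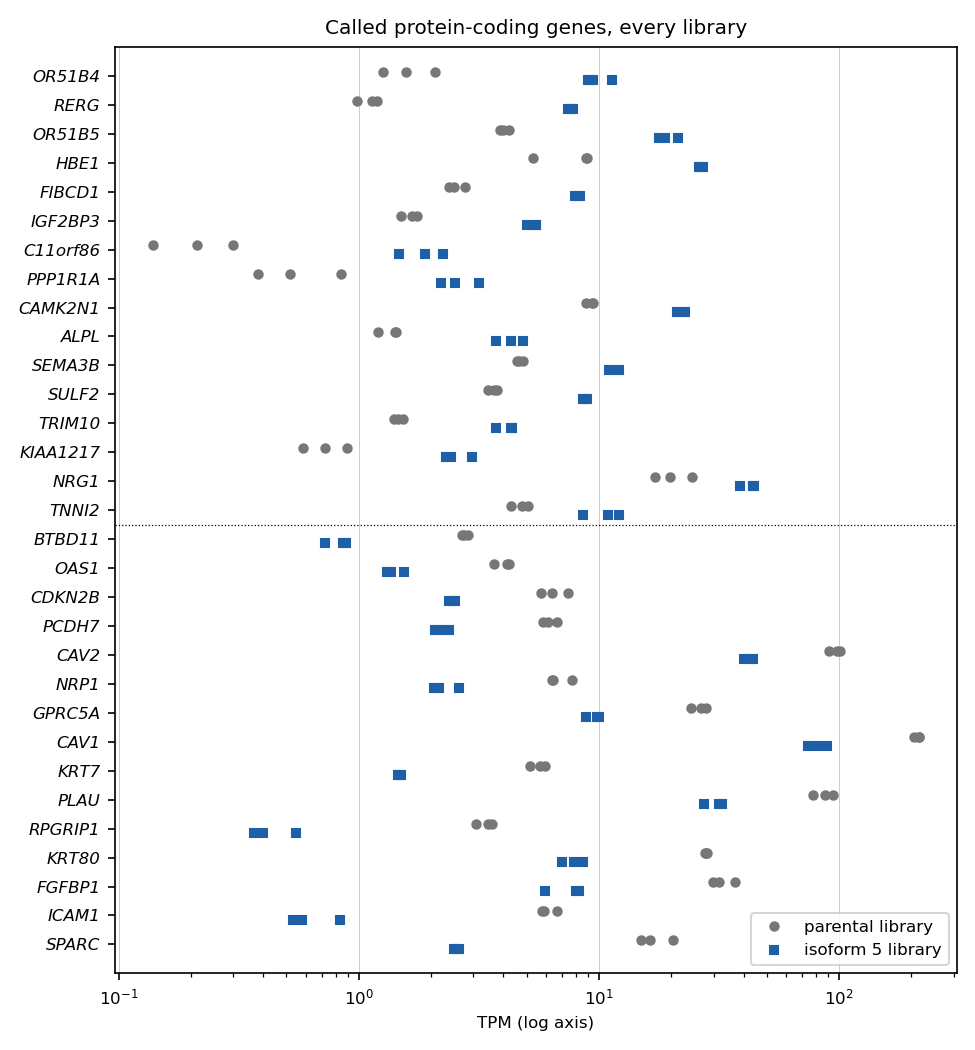
TPM on a log axis for the 31 protein-coding genes called in isoform 5 against parental, with grey circles for the 3 parental and blue squares for the 3 isoform 5 libraries; the dotted line divides genes called higher (above) from genes called lower. In every row the 2 groups are apart, from SPARC at 2.48 to 2.61 against 14.97 to 20.4 TPM to OR51B4 at 9.01 to 11.3 against 1.26 to 2.07 TPM.

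The lowest log2 fold changes were those of SPARC, ICAM1 and FGFBP1. SPARC, a secreted protein that binds collagen (chr5:151661096-151687165, GRCh38, minus strand), had 14.97, 16.3 and 20.4 TPM in the parental and 2.61, 2.52 and 2.48 TPM in the isoform 5 libraries. Its mean was 6.78-fold lower (log2 fold change -2.35 ± 0.338 SE, limma adjusted p 1.15e-05). ICAM1, the adhesion molecule that leukocyte integrins bind (chr19:10270835-10286615, plus strand), had 5.89, 6.68 and 5.80 TPM in the parental and 0.839, 0.580 and 0.533 TPM in the isoform 5 libraries. With a mean 9.41-fold lower it had the highest ratio of means among the protein-coding genes called lower (log2 fold change -2.11 ± 0.171 SE, limma adjusted p 4.47e-10). FGFBP1, a secreted carrier that releases fibroblast growth factors from the matrix, had 31.5, 36.9 and 30.0 TPM against 8.06, 8.29 and 5.97 TPM. That was a fall to a mean 4.41-fold lower (log2 fold change -2.01 ± 0.219 SE, limma adjusted p 1.18e-07).

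The promoters of these genes were read from the RefSeq promoter table (GRCh38.p14), which holds 250 bases before to 50 after a gene's start. Of the 31 called protein-coding genes, 17 had an entry, 7 higher and 10 lower. A match to the core of the HNF4 motif, CAAAGNNCA on either strand, stood in 5.28% of the 35093 promoters of the table and in 0 of the 35 promoters of the 17 genes, which says only that these letters are not in these windows. A loose NF-kB motif, GGNNNTTCC on either strand, stood in 20.1% of all promoters and in a promoter of 23.5% of the 27305 genes of the table, in 1 of the 10 genes called lower (ICAM1) and in 1 of the 7 called higher (ALPL). The promoters of the genes with the lowest log2 fold change and with the highest fold lower are shown 5′ to 3′, SPARC from chr5:151686866-151687165 (minus strand) and ICAM1 from chr19:10270870-10271169 (plus strand). Capitals mark the NF-kB match, GGAAATTCC, whose first base is at position -186 from the start site of ICAM1, and SPARC holds neither motif.
ICAM1: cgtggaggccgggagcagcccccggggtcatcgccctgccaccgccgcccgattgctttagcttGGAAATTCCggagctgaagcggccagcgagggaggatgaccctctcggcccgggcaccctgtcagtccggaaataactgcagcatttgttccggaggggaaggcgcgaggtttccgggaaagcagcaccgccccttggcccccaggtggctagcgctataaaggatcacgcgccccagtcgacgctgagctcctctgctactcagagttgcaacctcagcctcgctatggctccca
SPARC: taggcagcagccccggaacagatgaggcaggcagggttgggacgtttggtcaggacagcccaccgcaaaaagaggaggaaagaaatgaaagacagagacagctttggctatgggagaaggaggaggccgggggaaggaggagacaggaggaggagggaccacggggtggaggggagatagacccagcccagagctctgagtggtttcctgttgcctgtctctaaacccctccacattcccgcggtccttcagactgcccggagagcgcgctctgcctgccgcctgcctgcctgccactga

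KRT80 and KRT7, epithelial keratins that are neighbours on chromosome 12, were both lower. KRT80 had 27.6, 28.3 and 27.8 TPM in the parental and 8.55, 7.87 and 7.04 TPM in the isoform 5 libraries (log2 fold change -1.72 ± 0.154 SE, limma adjusted p 3.87e-09). KRT7 had 5.15, 5.94 and 5.70 against 1.495, 1.48 and 1.46 TPM (-1.41 ± 0.119 SE, limma adjusted p 1.13e-09). KRT7 overlaps KRT86 on the same strand, so its reads may be shared. CAV1 and CAV2, which form the coat of caveolae, were the most abundant called genes. CAV1 fell from 214.1, 214.5 and 204.3 TPM to 88.7, 80.9 and 74.5 TPM (log2 fold change -1.37 ± 0.0711 SE, limma adjusted p 1.67e-14). CAV2, on the same strand upstream of CAV1, fell from 98.1, 100.5 and 91.0 TPM to 43.6, 43.3 and 40.0 TPM (-1.17 ± 0.0815 SE, limma adjusted p 1.76e-11). In both genes each group's libraries lay close together and far from those of the other group.

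PLAU encodes urokinase, the secreted activator of plasminogen, and had 77.5, 93.9 and 87.1 TPM in the parental and 31.6, 32.6 and 27.3 TPM in the isoform 5 libraries. The change in PLAU was -1.47 ± 0.0771 on the log2 scale (SE, limma adjusted p 1.67e-14). GPRC5A, an orphan receptor induced by retinoic acid, had 24.1, 27.9 and 26.5 against 9.99, 9.85 and 8.80 TPM (-1.37 ± 0.0723 SE, limma adjusted p 1.67e-14). NRP1, a co-receptor for class 3 semaphorins and VEGF, had 6.45, 7.72 and 6.39 against 2.15, 2.60 and 2.06 TPM (-1.26). RPGRIP1, a ciliary protein of photoreceptors, was second to ICAM1 in its ratio of means, 7.71-fold lower at 0.548, 0.367 and 0.398 TPM against 3.44, 3.59 and 3.09 TPM (-1.61 ± 0.129 SE, limma adjusted p 3.87e-10). The remaining protein-coding genes called lower were PCDH7, a protocadherin (-1.16), CDKN2B, the inhibitor of CDK4 and CDK6 known as p15 (-1.11), OAS1, an antiviral oligoadenylate synthetase (-1.06), and BTBD11 (-1.04).

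Among the higher genes, 3 lie in or beside the beta-globin locus on chromosome 11. HBE1 encodes embryonic epsilon globin, and OR51B4 and OR51B5 encode olfactory receptors. HBE1 had 5.31, 8.92 and 8.81 TPM in the parental and 26.1, 26.7 and 27.2 TPM in the isoform 5 libraries (log2 fold change 1.70 ± 0.183 SE, limma adjusted p 9.55e-08). OR51B4 had 1.26, 1.58 and 2.07 against 9.01, 11.3 and 9.43 TPM (2.06 ± 0.151 SE, limma adjusted p 4.84e-11). OR51B5 had 3.87, 3.98 and 4.23 against 17.9, 21.4 and 18.8 TPM (2.01 ± 0.160 SE, limma adjusted p 3.00e-10). All 3 are on the minus strand. The annotated HBE1 (chr11:5268345-5505652) starts at the same base, 5505652, as OR51B5 (chr11:5303444-5505652) and spans OR51B4 (chr11:5301014-5301946). HBG2 also overlaps HBE1, OR51B4 and OR51B5 on the same strand. Reads can therefore be shared, and the 3 called genes are uncertain as separate genes.

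RERG, a Ras-like GTPase named for its regulation by estrogen and its growth-inhibiting effect, had the smallest adjusted p of the 43. It rose from 0.987, 1.13 and 1.19 TPM to 7.67, 7.44 and 7.79 TPM, 6.92-fold (log2 fold change 2.04 ± 0.0980 SE, limma adjusted p 2.96e-15). FIBCD1, a membrane receptor that binds acetylated sugars such as chitin, had 2.38, 2.50 and 2.76 against 8.36, 7.95 and 8.17 TPM (1.37 ± 0.149 SE, limma adjusted p 1.17e-07). IGF2BP3, an RNA-binding protein of fetal tissue and tumours, had 1.49, 1.75 and 1.66 against 5.46, 5.48 and 5.03 TPM (1.26 ± 0.0869 SE, limma adjusted p 1.44e-11). CAMK2N1, an inhibitor of CaM kinase II, had 9.39, 8.86 and 9.43 against 21.1, 22.7 and 22.4 TPM (1.18 ± 0.146 SE, limma adjusted p 1.25e-06). In each of these 4 genes the isoform 5 libraries lay close together and above every parental one.

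ALPL, the alkaline phosphatase of bone, liver and kidney, rose from 1.43, 1.42 and 1.21 TPM to 4.82, 4.30 and 3.73 TPM (log2 fold change 1.16 ± 0.112 SE, limma adjusted p 1.47e-08). SULF2, which removes sulfate groups from heparan sulfate outside the cell, rose from 3.67, 3.76 and 3.45 to 8.78, 8.95 and 8.61 TPM (1.08 ± 0.0770 SE, limma adjusted p 2.77e-11). SEMA3B, a secreted class 3 semaphorin, rose from 4.57, 4.65 and 4.85 to 12.1, 11.6 and 11.0 TPM (1.14). The other protein-coding genes called higher were C11orf86 (1.23), PPP1R1A, an inhibitor of protein phosphatase 1 (1.2), TRIM10, a RING-finger protein of the major histocompatibility region (1.06), KIAA1217 (1.04), NRG1, the neuregulin ligand of ERBB3 and ERBB4 (1.02), and TNNI2, a troponin I of fast muscle (1.00). C11orf86 and PPP1R1A stayed low, with means of 1.86 and 2.62 TPM in the line. NRG1 had 24.3, 19.8 and 17.1 TPM in the parental and 43.6, 44.2 and 38.6 TPM in the isoform 5 libraries.

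The 12 called rows that are not protein-coding are uncertain, because reads of pseudogenes and of overlapping or repeated sequences can be shared, and short RNAs mostly lack the poly(A) tail by which the libraries were enriched. Of these, 6 were higher and 6 lower. SNORD173 had 5.42, 3.55 and 3.89 TPM in isoform 5 and was listed at 0 in all parental libraries. The mitochondrial TRNH and TRNG had log2 fold changes of 1.64 and 1.18, and RN7SL87P, LOC105372291 and TMEM132D-AS1 of 1.56, 1.28 and 1.24. SNORD134, LOC112267864, RPL12P14, RPL21P75, LOC100420818 and LOC105379083 were at -1.62, -1.51, -1.28, -1.09, -1.05 and -1.05. TMEM132D-AS1 had 6.07, 3.44 and 4.20 TPM in the parental and 11.8, 10.3 and 13.9 TPM in the isoform 5 libraries.

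Of the 43 called genes, 32 (14 higher and 18 lower) were called under every alternative that tested them, and 11 lost the call under at least 1. Among the protein-coding genes these were KIAA1217, NRG1 and TNNI2, whose lowest log2 fold changes over the alternatives were 0.96, 0.91 and 0.90 with a largest adjusted p of 0.0114. The others were SNORD173, TRNH, TRNG, LOC105372291, TMEM132D-AS1, LOC105379083, LOC100420818 and RPL21P75. By the authors' deposited table, 34 of the 43 moved the same way at an adjusted p under 0.05, and for the other 9 it gives none. Over all genes 3821 of the 16432 with an adjusted p there were under 0.05. The authors compared the same groups, so this is no independent evidence. Both thresholds applied to the authors' deposited table leave 33 genes (16 higher, 17 lower), and 27 of these are among the 43.

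The other 6 of the authors' 33 were under the level filter here, which asked for a mean of 1 TPM over all 39 libraries. Among them CREB5, a transcription factor of the CREB family, had 0.220, 0.316 and 0.243 TPM in the parental and 2.88, 3.02 and 2.90 TPM in the isoform 5 libraries. With the filter set on these 2 groups CREB5 was called (log2 fold change 1.64 ± 0.0711 SE, limma adjusted p 1.86e-16), and the authors' deposited table gives 2.48. FBLN5, a secreted elastic fibre protein and also one of the 6, was called at 1.12 ± 0.0956 (SE) with that filter. TLL1, FGF1, NAV3 and LOC105372699, the rest of the 6, were not called with it or with a filter on either group. SERPINB2, the plasminogen activator inhibitor that acts on urokinase, is not among the authors' 33, as their value is -0.861. It was called at -1.08 ± 0.141 (SE) with the filter on the 2 groups. SERPINB2 had 2.02, 2.18 and 1.70 TPM in the parental and 0.479, 0.405 and 0.310 TPM in the isoform 5 libraries. The 43 therefore leave out some genes that pass in these 2 groups and are low in the other lines. CREB5, FBLN5 and SERPINB2 had means under 1 TPM in the group where they were lower. They passed the filter on the 2 groups only through the other group, so passing depended in part on the difference itself.

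DHRS2, a short-chain dehydrogenase, had 83.9, 99.3 and 106.1 TPM in the parental and 201.2, 191.4 and 206.4 TPM in the isoform 5 libraries. The groups did not overlap and the ratio of means was 2.07, but the log2 fold change of 1.05 ± 0.407 (SE) had a limma adjusted p of 0.0831 with the spread estimated over all 13 groups. Fitted on the 6 libraries alone the SE was 0.0806 and the adjusted p 0.000566. The authors' deposited table gives a log2 fold change of 0.977 with an adjusted p of 1.55e-65.

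Most gene lists moved by far less than 2-fold, as the plot of list members shows. The lists were chosen with earlier results of these data known, so their counts are descriptions. For each, the number of members with an adjusted p under 0.05 from limma is given, against 9.57% higher and 5.22% lower over all genes tested.

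**Figure D2:**
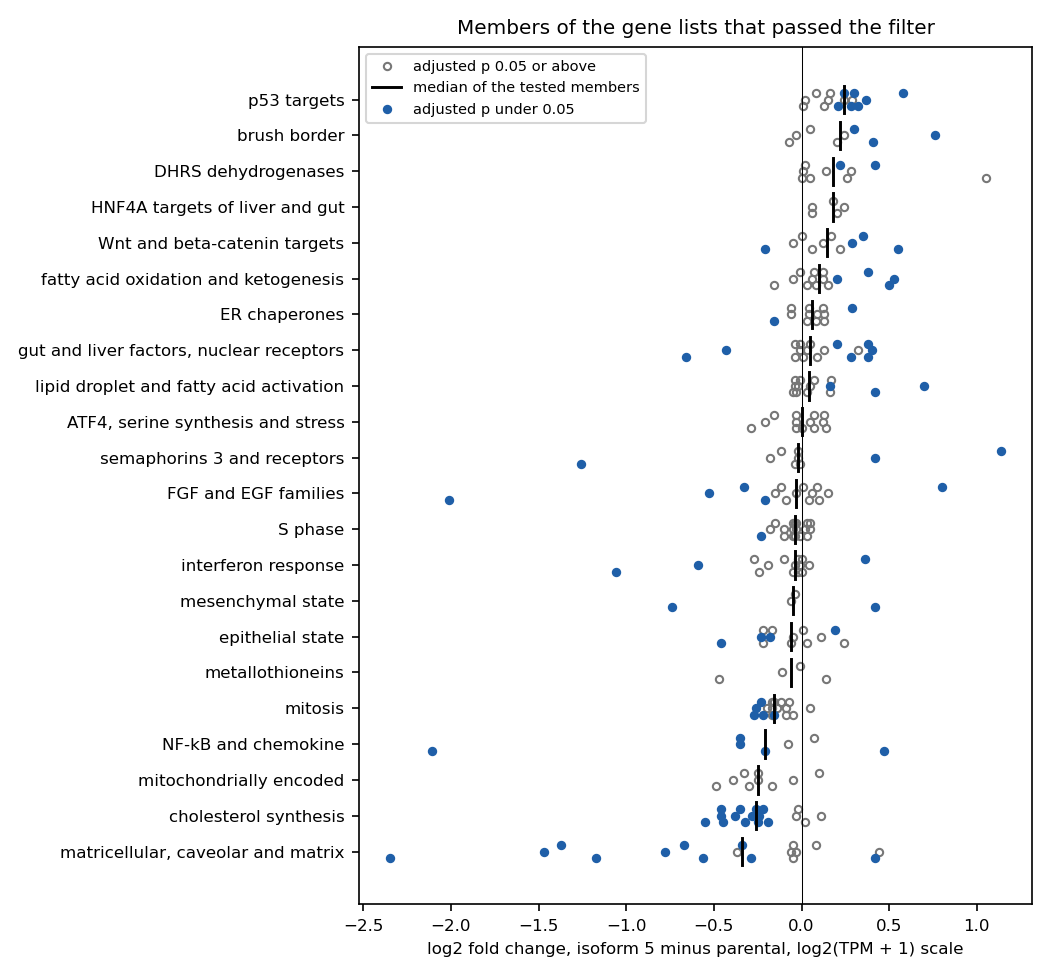
Log2 fold change of isoform 5 minus parental, on the log2(TPM + 1) scale, for each list member that passed the level filter; filled circles have an adjusted p under 0.05, open circles do not, and black bars are list medians. Cholesterol synthesis members lie mostly left of 0 (median -0.26) and p53 targets right of 0 (median 0.24), while single members such as SPARC, FGFBP1 and ICAM1 lie beyond -2.

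Known HNF4A targets of liver and gut were mostly near 0 TPM. Of the 21 listed, 16 were under the level filter, with SERPINA1 the highest of these at 0.179 TPM in the line. The 5 that passed were APOA1, VIL1, LGALS4, MTTP and F10, and with limma 0 of 5 had an adjusted p under 0.05 and 0 an unadjusted p under 0.05. This depended on the scale for low genes. With 0.1 TPM in place of 1 added before the logarithm, 2 of the 5 had an unadjusted limma p under 0.05. Still 0 had an adjusted p under 0.05, and the median log2 fold change was 0.52 against 0.18. VIL1, which bundles actin in microvilli, had 0.554 TPM ± 0.112 in the parental and 0.832 TPM ± 0.121 in the isoform 5 cells (SD, n = 3; log2 fold change 0.24 ± 0.165 SE, limma adjusted p 0.388). F10, coagulation factor X, was at 9.25 TPM ± 0.569 and 9.68 TPM ± 1.01 (SD, n = 3). In the brush border list, 3 of 8 tested members rose and 0 fell: USH1C, a scaffold of the microvillus tip, from 6.43 to 11.7 TPM (0.76), EPS8 (0.41) and DPP4 (0.30).

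Of 14 genes that many lines share in an earlier analysis of these data, a list that is no independent evidence of direction, 6 had an adjusted p under 0.05 and rose and 3 fell. Besides the called C11orf86, SEMA3B, TRIM10, CAMK2N1, SPARC and FGFBP1, these were CIDEC, a lipid droplet protein, from 0.0745 to 0.752 TPM (0.70), IL32, a cytokine (0.47, limma adjusted p 0.0389), and PPP1R1B (-0.87, limma adjusted p 0.00881). ACSL5, which activates long-chain fatty acids, had 0.550 TPM ± 0.0801 in the parental and 0.524 TPM ± 0.140 in the isoform 5 cells (SD, n = 3). CIDEB and SDCBP2 were at 0.03 and 0.22 and CAVIN2 at 0.44, with limma adjusted p-values of 0.936, 0.512 and 0.0853.

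Cholesterol is made from acetyl-CoA through mevalonate and lanosterol. Of 17 tested genes of cholesterol synthesis 13 fell and 0 rose, with a median log2 fold change of -0.26 against 0.012 over all genes. MVD, an enzyme of the mevalonate pathway, fell from 159.2 TPM ± 7.04 to 108.4 TPM ± 4.32 (SD, n = 3; -0.55 ± 0.0587 SE, limma adjusted p 8.70e-08). DHCR7, which makes cholesterol from its last precursor, fell from 166.4 to 120.9 TPM (-0.46), and HMGCS1, at the start of the pathway, from 153.1 to 110.7 TPM (-0.46). INSIG1, which holds back the activation of SREBP, was at -0.45. Without any single library of the 6, between 11 and 13 members still fell. In fatty acid oxidation and ketogenesis 4 of 14 rose, ETFDH (0.53), PDK4 (0.50), PPARA (0.38) and BDH1 (0.20), and 0 fell. Only 1 rose without parental replicate 1 or without parental replicate 2, and 2 without the isoform 5 library A5N3.

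Of 17 tested matricellular, caveolar and matrix genes 9 fell, 4 of them called (SPARC, PLAU, CAV1, CAV2), and 1 rose, with a median of -0.34. CCN1 and CCN2, secreted products of YAP and TEAD activity, were at -0.67 and -0.78, with limma adjusted p-values of 0.00239 and 0.00037. FN1, fibronectin, rose from 4.75 to 6.71 TPM (0.42), but not without A5N1. In the NF-kB and chemokine list 4 of 7 tested members fell: ICAM1, TNFAIP3 (-0.35), RELB (-0.35) and NFKB2 (-0.21). IL32 was the member that rose, and it kept an adjusted p under 0.05 without A5N2 but not without any other library of the 6. In the interferon list 2 of 15 fell, OAS1 and OAS3, from 29.2 to 19.0 TPM (-0.59 ± 0.0922 SE, limma adjusted p 3.43e-05), and ISG20 rose (0.36).

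Among growth factor genes, 4 of 15 tested FGF and EGF family members fell, FGFBP1, BTC (-0.53), AREG (-0.33) and FGFR4 (-0.21), and FGF19, the bile acid-responsive hormone of the ileum, rose from 9.37 TPM ± 0.0946 to 17.1 TPM ± 0.804 (SD, n = 3; 0.80 ± 0.101 SE, limma adjusted p 1.57e-06). NRG1 was not on that list. In the semaphorin list SEMA3B and SEMA3F (0.42) rose and NRP1 fell, of 9 tested. Of 17 gut and liver transcription factors and nuclear receptors 5 rose, among them NR5A2 (0.40) and HNF4G, the close relative of HNF4A (0.38), and 2 fell, NR2F1 (-0.66) and KLF4 (-0.43). The count that rose was 2 without parental replicate 2, and 3 without parental replicate 3 or A5N2.

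Of 15 targets of p53, 7 rose and 0 fell (median 0.24), among them TP53INP1 from 19.6 to 29.9 TPM (0.58), BTG2 (0.37), SESN1 (0.32) and CDKN1A, the CDK inhibitor p21, from 103.9 TPM ± 3.29 to 128.5 TPM ± 7.63 (SD, n = 3; 0.30). Leaving out single libraries gave between 3 and 6 that rose, 3 without A5N2 and 4 without parental replicate 1. Of 17 mitosis genes 5 fell, among them PLK1 (-0.27), UBE2C (-0.26), CDC20 (-0.23) and KIF20A (-0.22). With limma 0 passed without parental replicate 2 or without A5N1, where 5 and 6 had an unadjusted p under 0.05. It was 1 without A5N3 and 3 without parental replicate 1, parental replicate 3 or A5N2, while the fit on the 6 libraries alone gave 9. Of 18 S phase genes 1 fell, CCNE1 (-0.23), which passed without A5N2 but not without any of the other 5 libraries, and 5 fell in the fit on the 6 libraries alone. None of 13 tested members of the ATF4 and serine synthesis list, of 4 metallothioneins and of 9 mitochondrially encoded genes had an adjusted p under 0.05 from limma, and 3, 0 and 0 of them had an unadjusted p under 0.05. With the fit on the 6 libraries alone, 1 ATF4 list member rose and 1 fell, 1 metallothionein fell and 2 mitochondrially encoded genes fell. In the epithelial list KRT18 (-0.46), EPCAM (-0.23) and KRT8 (-0.18) fell and KRT19 rose (0.19), and in the mesenchymal list VIM fell (-0.74) and FN1 rose, VIM not without parental replicate 2 or A5N3. Of 10 Wnt targets NOTUM (0.55), DKK1 (0.35) and NKD1 (0.29) rose and MYC fell (-0.21). Of 12 ER chaperones HYOU1 rose (0.29) and HSP90B1 fell (-0.16), the latter not without parental replicate 2, parental replicate 3, A5N1 or A5N2. Of 14 lipid droplet genes CIDEC, PLIN5 (0.42) and PNPLA2 (0.16) rose, a count of 3 that ran from 1 without parental replicate 1, parental replicate 2, A5N1 or A5N2 to 5 without A5N3. Of 10 DHRS dehydrogenases DHRS13 (0.42) and DHRS7 (0.22) rose, with 1 left without parental replicate 1. In the fit on the 6 libraries alone 4 DHRS dehydrogenases and 3 ER chaperones rose, 5 epithelial genes fell, 2 matricellular genes rose, and IL32 did not pass.

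The genes around the called ones were examined where called genes lie close together, in windows of 500 kb on either side, and around TNNI2. In the beta-globin window 6 genes were tested. HBB, the adult beta globin, went the other way from HBE1, from 34.8 TPM ± 2.61 to 27.5 TPM ± 2.19 (SD, n = 3; -0.33 ± 0.0937 SE, limma adjusted p 0.0148), and TRIM5, beyond the olfactory receptors, rose (0.50). In the caveolin window MET, the receptor of hepatocyte growth factor, fell from 29.8 to 21.0 TPM (-0.48), ST7-AS1, antisense to ST7, rose (0.50, limma adjusted p 0.0201), and TES, CAPZA2 and ST7 were within 0.06 of 0. ST7-AS1 is uncertain, since the strand used in counting is not stated. The same limit can apply to called genes that overlap genes on the opposite strand, among them RERG, PPP1R1A, SULF2, IGF2BP3 and PLAU. In the keratin window the 4 genes other than KRT80 and KRT7 were between -0.08 and 0.11. The window around TNNI2 was added by choice, since it holds no other called gene. TNNI2 was itself picked as a called gene, so the count in its window is a description. In this window 5 of 9 genes rose, against 9.57% of all genes tested. They were SYT8 (0.68), LSP1 (0.72), H19, an imprinted non-coding RNA, from 11.1 to 20.3 TPM (0.80) and BRSK2 (0.22), besides TNNI2 itself. IGF2, the imprinted growth factor that neighbours H19, has 2 entries in the annotation and was left out of the window. It had 11.0, 10.3 and 9.73 TPM in the parental and 22.4, 21.3 and 19.6 TPM in the isoform 5 libraries, and its change of 0.96 ± 0.0866 (SE, limma adjusted p 4.06e-09) was just under the call.

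**Figure D3:**
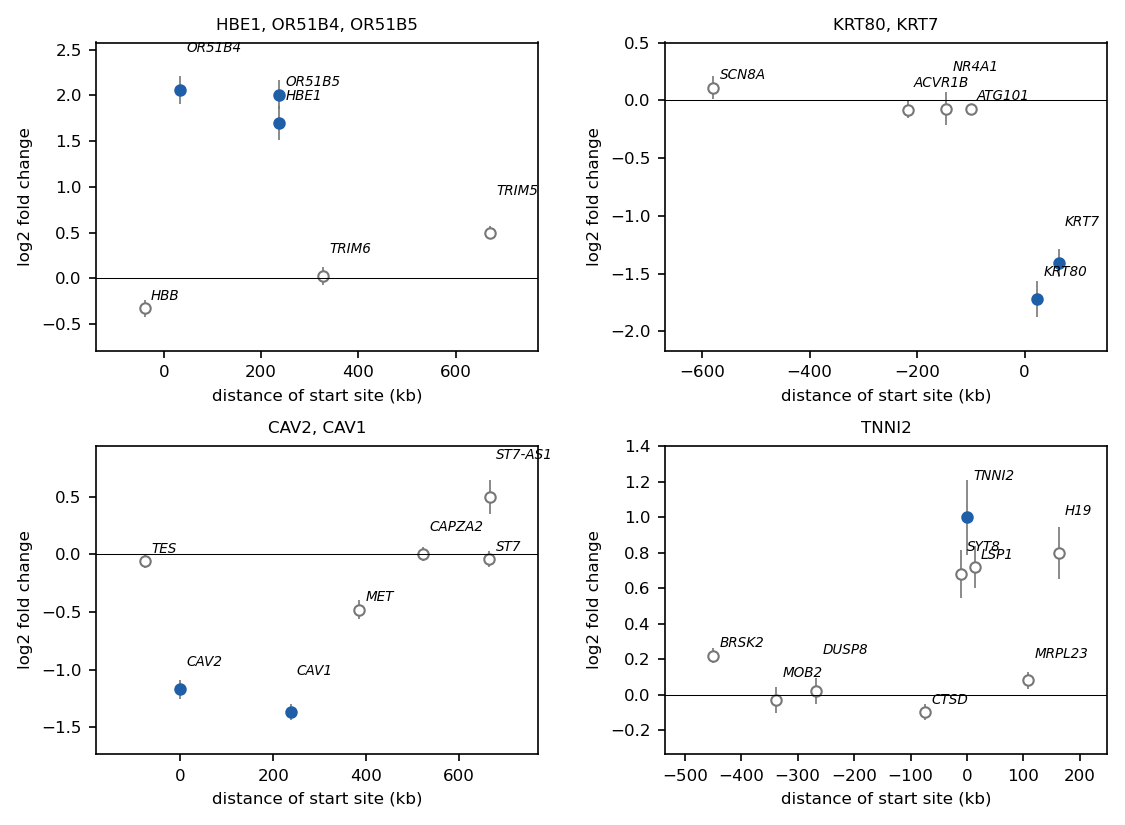
Log2 fold change of isoform 5 minus parental with its SE for the tested genes within 500 kb of called neighbours or of TNNI2. The horizontal axis is the distance of each gene's start site in kb from the first base of the named genes, and filled points are called. In the keratin window the called pair stands apart from neighbours between -0.08 and 0.11, and around TNNI2 SYT8, LSP1 and H19 lie between 0.68 and 0.80.

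The 43 genes were then read in the lines of the other isoforms, all against the same 3 parental libraries, so the values are given side by side only. SPARC and FGFBP1 were called lower in all 12 lines, and C11orf86, SEMA3B, CAMK2N1 and TRIM10 higher in 11. Ranked by the size of the change, the isoform 5 line was number 11 of the 12 for SPARC, C11orf86, SEMA3B and TRIM10, number 9 for CAMK2N1 and number 4 for FGFBP1. C11orf86 was at 1.23 here, against 0.51 in isoform 6 and 6.35 in isoform 1. SEMA3B was at 1.14 against up to 3.64, and SPARC at -2.35 against -4.03 to -1.56. By contrast 9 of the 43 were called the same way in no other line, among them ALPL, SULF2, NRG1, KIAA1217 and TNNI2 (higher) and GPRC5A (lower). Several of these came near a call elsewhere. NRG1 was at 0.98 in isoform 2, where its level of 40.8 TPM differed from the 42.1 TPM of isoform 5 by 0.04 (limma adjusted p 0.774), and at 0.87 in isoform 12. TNNI2 was at 0.93 in isoform 12 and at 0.82 in isoform 6, and its direct difference from isoform 6 was 0.18 (limma adjusted p 0.73). KIAA1217 was at 0.77 in isoform 12. ALPL was at or below 0 in the 11 other lines, from -0.80 in isoform 7. SULF2 ran from -1.09 in isoform 7 to 0.28 in isoform 4 outside this line. GPRC5A was at -0.97 in isoform 4 and -0.99 in isoform 12, just short of a call. HBE1, OR51B4 and OR51B5 were called higher in isoforms 4, 5 and 12, and their log2 fold changes were below 0 in the other 9 lines, down to -2.74 for HBE1 in isoform 9.

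**Figure D4:**
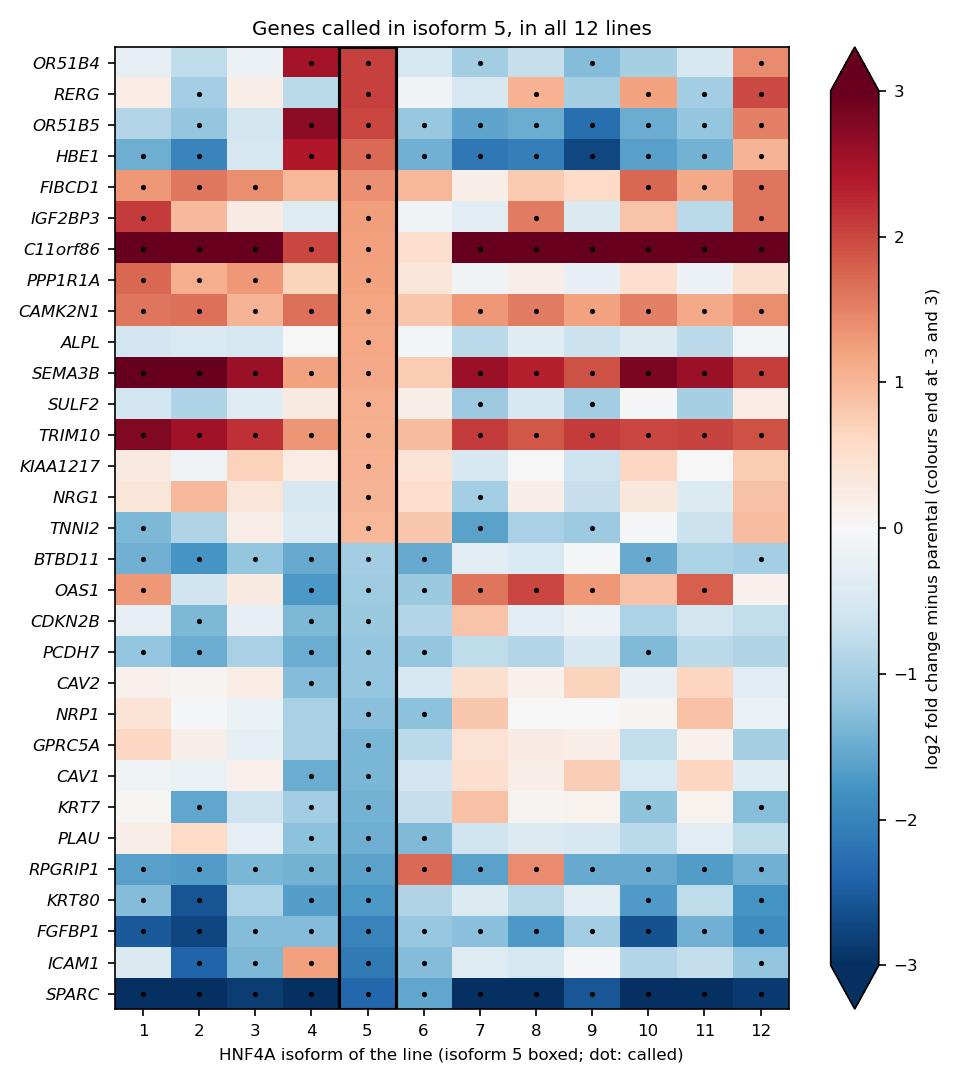
Log2 fold change against the shared parental libraries (colour, ending at -3 and 3) of the 31 protein-coding genes called in isoform 5, in the lines of all 12 isoforms; black dots mark calls and the box marks isoform 5. SPARC and FGFBP1 are lower in every column, whereas ALPL at 1.16 and SULF2 at 1.08 are called higher in the boxed column alone.

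Direct tests between lines compare their levels without the parental means, although the parental libraries enter the level filter and the shared estimate of the spread. The isoform 5 line differed from the isoform 2 line, which lacks exon 1B, in 604 genes (4.03% of 15002), 301 higher (2.01%) and 303 lower (2.02%) in isoform 5. The isoform 2 line held 613.5 TPM ± 39.2 (SD, n = 3) of HNF4A mRNA against 852.2 TPM here, a difference of 0.47 with a limma adjusted p of 0.0042, and the part of this level in the other differences was not tested. The genes lowest in isoform 5 were ACSL5, at 0.524 against 81.2 TPM (difference in log2(TPM + 1) of -5.76 ± 0.1097 SE, limma adjusted p 2.03e-26), IL32 (-5.46), CIDEC (-5.15), C11orf86 (-5.05) and AQP7P3, a pseudogene and so uncertain (-4.93). VIL1, a known target, was at 0.832 against 33.3 TPM, a difference of -4.22. The genes highest in isoform 5 were DHRS2, at 199.7 against 3.82 TPM (5.40 ± 0.407 SE, limma adjusted p 2.09e-12), HBE1 (3.67), TMEM132D-AS1 (3.40), CAVIN2, which helps form caveolae (3.32), and OR51B5 (3.18). The 43 genes called against parental were picked with the same isoform 5 libraries, so their counts here are descriptions. Of them, 22 were called different between these lines and 30 passed without a minimum fold change, against 53.9% of all genes. Among them PLAU was at 30.5 TPM in isoform 5 and 129.7 TPM in isoform 2 (-2.06), CAV1 at 81.3 against 185 TPM (-1.18), and NRP1 at 2.27 against 6.53 TPM (-1.2). The split into higher and lower depended on scaling: with median ratios it was 241 higher and 352 lower, and the median difference of all genes was 0.098 as deposited and 0.008 when scaled.

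Against isoform 4, the exon 1B form without the insertion, 53 genes differed (0.353%), 44 higher (0.293%) and 9 lower (0.06%) in the line labelled isoform 5. Both lines are taken as labelled, and the row order of the HNF4A rows would exchange them. Among the 44, the tRNA rows TRG-GCC1-1 to TRG-GCC1-5 hold the same values in every library, and with repeated rows counted once 49 genes differed, 40 of them higher. Its own HNF4A level, 855.8 TPM ± 28.2 (SD, n = 3), was close to that of isoform 5, with a difference of -0.01 (limma adjusted p 0.99). The highest in isoform 5 were RNY3P1, a short RNA pseudogene listed at 0 in isoform 4 and uncertain, TMEM132D-AS1 (2.90), RERG, at 7.63 against 0.187 TPM (2.86 ± 0.0980 SE, limma adjusted p 4.33e-19), CAVIN2 (2.53) and DHRS2 (2.01). The lowest were ICAM1, at 0.651 against 15.6 TPM (-3.33 ± 0.171 SE, limma adjusted p 9.53e-15), the short RNAs RNU6-333P and SNORD3K, which are uncertain, EREG, an EGF family ligand, at 6.03 against 20.5 TPM (-1.61), and NAT2, an arylamine acetyltransferase (-1.60). ICAM1 lay below the parental level in isoform 5 and above it in isoform 4. Of the 43, picked with these same isoform 5 libraries, 7 were called different and 19 passed without a minimum fold change, against 10.1% of all genes. IGF2BP3 (1.65), NRG1 (1.5), TNNI2 (1.42) and ALPL (1.17) were among the 7. CAV1, CAV2 and PLAU differed by 0.11, 0.13 and -0.23, with limma adjusted p-values of 0.39, 0.38 and 0.053.

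Against isoform 6, the exon 1B form with the shortened C-terminus, 19 genes differed (0.127%), 14 higher (0.0933%) and 5 lower (0.0333%) in isoform 5. The line of isoform 6 held 1071 TPM ± 41.4 (SD, n = 3) of HNF4A mRNA, a difference of -0.33 (limma adjusted p 0.19). The highest in isoform 5 were DHRS2, at 199.7 against 9.98 TPM (4.19 ± 0.407 SE, limma adjusted p 2.69e-08), HBE1 (3.15), OR51B5 (3.14), LOC105379273, listed at 0 in isoform 6, and OR51B4 (2.58). RERG was at 2.15. All 5 lower genes were protein-coding: RPGRIP1, at 0.437 against 13.3 TPM (-3.32 ± 0.129 SE, limma adjusted p 1.66e-17), FGF13 (-2.37), VIM, the intermediate filament of mesenchymal cells (-1.81), SUCNR1, the succinate receptor (-1.52), and CYR61, the older symbol of CCN1 (-1.24). Of the 43, picked with these same isoform 5 libraries, 8 were called different and 21 passed without a minimum fold change, against 4.67% of all genes. TMEM132D-AS1, RERG and ALPL were called higher in isoform 5 in all 3 direct comparisons, and so was DHRS2, which was not among the 43. Against parental, RERG was also called higher in isoforms 8, 10 and 12, and TMEM132D-AS1 in isoform 8, at 1.60.

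**Figure D5:**
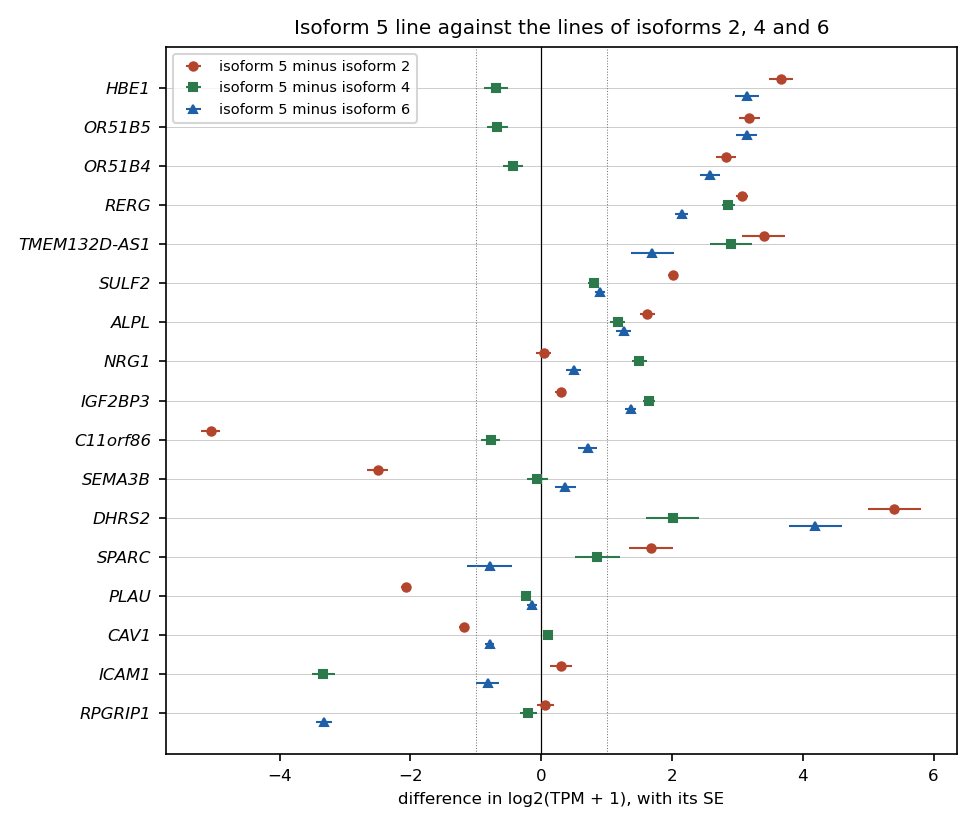
Difference in log2(TPM + 1) between the isoform 5 line and the lines of isoforms 2 (red circles), 4 (green squares) and 6 (blue triangles), with its SE, for 17 genes named in the text; dotted lines mark -1 and 1. RERG, ALPL and DHRS2 lie right of 1 in all 3 comparisons, whereas C11orf86 reaches -5.05 against isoform 2 and ICAM1 -3.33 against isoform 4.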

How the data were processed

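The authors sequenced poly(A)-enriched RNA with a directional kit and deposited, per the file headers, TPM per gene and library with a comparison table of the isoform 5 line against parental cells: log2 fold changes, their standard errors, statistic scores, p-values and adjusted p-values, and mean normalised counts (a signal averaged by the authors over the libraries they compared). The submitters' processing notes name kallisto 0.44.0, DESeq2 1.22.2, Trimmomatic 0.36, FastQC 0.11.5 and GRCh38.p12, without roles. Depth per library is unknown, so no counting interval is given. TPM sums were between 999972.6 and 999987.7.

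Tables were joined by row order, because 29 row names differ, and the 12 HNF4A rows were summed and kept out of the counts. Columns of the isoform 5 line could be tied to the group but not to single samples, and are called A5N1 to A5N3 as in the tables. log2(TPM + 1) was fitted with limma 3.58.1 (R 4.3.3, intensity trend) over 39 libraries in 13 groups (26 residual degrees of freedom) for genes that averaged 1 TPM or more. p-values were adjusted over all genes tested by the method of Benjamini and Hochberg, and the script was tested on simulated data. In the 6 libraries 160 of the tested genes averaged under 1 TPM, and 77 tested rows repeat another row. Positions are from GENCODE 29 (GRCh38), and no exon was singled out.

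Named were HNF4A, called genes, called members of gene lists with up to 4 more that passed, the 14 genes that many lines share, and the 5 highest and 5 lowest genes against isoforms 2, 4 and 6. Genes under the level filter, in the windows and among the known targets were named after their values were seen. The members and lists were chosen with earlier results of these data known. Alternatives changed the pseudocount, level filter, scaling, libraries fitted, variance shrinkage, repeated rows and minimum fold change, and left out each library.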

Additional observations from a re-analysis of the deposited data

Results flagged for a closer look

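In the gene and line pairs given here, isoform 5 and another line moved in opposite directions from the shared parental cells, and limma's direct test of the 2 lines passed. Values are differences in log2(TPM + 1), isoform 5 minus the other line, each over 3 libraries a line. The genes were picked as called against parental with these same isoform 5 libraries, so the direct tests are descriptions. HBE1, OR51B4 and OR51B5 are uncertain as separate genes, and TMEM132D-AS1, which is not protein-coding, is uncertain too.

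Against isoform 2 the genes higher in isoform 5 were HBE1 (3.67, adjusted p 1.57e-16), TMEM132D-AS1 (3.40, adjusted p 2.94e-10), OR51B5 (3.18), RERG (3.07), OR51B4 (2.82), SULF2 (2.01), TNNI2 (1.92) and ALPL (1.62). GPRC5A (-1.55) and PLAU (-2.06, adjusted p 2.29e-19) were lower. PLAU was at -1.47 in isoform 5 and at 0.59 in isoform 2 against parental.

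Against isoform 4 the genes higher in isoform 5 were TMEM132D-AS1 (2.90), RERG (2.86), IGF2BP3 (1.65) and NRG1 (1.5). ICAM1 was lower (-3.33, adjusted p 9.53e-15), at -2.11 in isoform 5 and 1.22 in isoform 4 against parental.

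Against isoform 6 the neighbours HBE1 (3.15), OR51B5 (3.14) and OR51B4 (2.58) were higher in isoform 5. RPGRIP1 was lower (-3.32, adjusted p 1.66e-17), at -1.61 in isoform 5 and 1.71 in isoform 6 against parental.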

How the results depend on the processing

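Against parental cells 73 genes were called with a pseudocount of 0.1 TPM (41 higher, 32 lower), 21 with a minimum of 5 TPM and 2218 with no minimum fold change. Against isoform 2 the count was 365 with 5 TPM and 8086 with no minimum fold. Against isoform 4 it was 123 with a pseudocount of 0.1 TPM, 22 with 5 TPM and 1510 with no minimum fold. Against isoform 6 it was 44, 8 and 700 under the same 3 settings. Fewer genes were tested at 5 TPM, and a smaller pseudocount widens the fold of low genes. Leaving out each library in turn gave 38 to 47 calls against parental, 597 to 613 against isoform 2, 52 to 63 against isoform 4 and 18 to 20 against isoform 6. Against parental the fit on 6 libraries called 60 genes, no level filter 49, a filter on the 2 groups 48, a filter on either group, added after seeing the data, 53, robust shrinkage 42 and scaling 43. No called gene reversed against parental under these settings. HNF4A passed throughout. Low genes limit the precision, since depth is unknown. No paired analysis was possible because the columns of the isoform 5 line carry no replicate number that the labels tie to a single sample.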
